A study of Mus musculus with 2 samples.

Results

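The cells described here are the 1000 tumour-derived cells with the highest joint level of Klrb1b, Il1r2 and 4 major histocompatibility complex (MHC) class II genes, H2-Aa, H2-Ab1, H2-Eb1 and H2-DMb2. They were chosen by a measured score, the mean over these 6 genes of the natural log of 1 plus the UMIs per 10000 of the cell. A UMI, or unique molecular identifier, tags a single captured RNA molecule. The choice was made among 9655 base cells, out of 13837 barcodes in all. A base cell had at least 200 genes, at most 10% mitochondrial UMIs, fewer than 2 UMIs of the mCherry construct and at least 1 UMI of Csf1r, the receptor gene for colony-stimulating factor 1 that marks monocytes, macrophages and some dendritic cells. The chosen cells are called members below, and the remaining 8655 are the other base cells. Of the members, 371 came from the young library and 629 from the adult library.

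The study sorted mCherry+ cells, mCherry being a red fluorescent protein, from pooled tumours of young mice (4 weeks old) and adult mice (24 weeks old). Both groups carry the stage label d7, and the labels used here give no strain, sex, tumour line, treatment or number of mice. Each age is a single droplet library from the 10x Genomics 3' kit, version 2, and the study's title places it in the question of antigen cross-presentation in young tumour-bearing hosts. Neither age has a replicate and nothing could be tested, so age cannot be told apart from the pool, the sort and the library.

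MHC class II molecules carry peptides from ingested proteins to CD4 T cells. Class II is made constitutively by dendritic cells and B cells and is raised in macrophages by interferon gamma, in each case through the coactivator CIITA. The invariant chain, encoded by Cd74, escorts the class II chains, and H2-DM loads the peptide while H2-O restrains H2-DM. Klrb1b encodes NKR-P1B, an inhibitory C-type lectin receptor known mainly from natural killer cells, and Il1r2 encodes the decoy receptor for interleukin 1. Conventional dendritic cells are known for Zbtb46 and Flt3, and for Ccr7 once they mature and migrate. Monocyte-derived cells are known for Ly6c2 and Ccr2 early and for Cd14, Fcgr1 and C1q genes as they become macrophages.

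The class II promoters share a short element, the Y box, an inverted CCAAT box bound by NF-Y, and its core is shown here because class II genes inside and outside the score share it. The 5 stretches below are read 5′ to 3′ on the gene's strand from RefSeq (GRCm38.p6, the build that mm10 names), with the core GATTGG in capitals. H2-Aa lies at chr17:34287859-34287924 on the minus strand. The other 4 are on the plus strand, H2-Eb1 at chr17:34305755-34305820, H2-DMb1 at chr17:34153077-34153142, H2-DMb2 at chr17:34145106-34145171 and H2-Oa at chr17:34092283-34092348.
H2-Aa: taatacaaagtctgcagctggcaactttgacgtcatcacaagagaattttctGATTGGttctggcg
H2-Eb1: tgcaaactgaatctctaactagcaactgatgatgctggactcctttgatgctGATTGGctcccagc
H2-DMb1: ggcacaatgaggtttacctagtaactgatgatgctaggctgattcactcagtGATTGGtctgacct
H2-DMb2: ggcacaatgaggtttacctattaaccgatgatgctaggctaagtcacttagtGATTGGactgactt
H2-Oa: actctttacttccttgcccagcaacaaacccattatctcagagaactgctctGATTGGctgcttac

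In these 5 genes the core began between 44 bases (H2-Oa) and 91 bases (H2-DMb2) before the annotated start. The letters GATTGG were sought on both strands in windows of 250 bases before to 50 after the start. They were found for 8 of the 8 class II molecule genes with a window and for 18.2% of all 27025 genes. By window the share was 16.1% of all 32851, and H2-DMa had a match in 1 of its 2 windows. No match was found in the windows of Klrb1b, Il1r2 or Ccl17. These matches describe letters only.

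Members made up 6.88% of the young base cells (371 of 5390, interval 6.22 to 7.59%) and 14.7% of the adult base cells (629 of 4265, interval 13.7 to 15.8%). The adult share was 2.14 times the young share (1.90 to 2.42). Intervals here and below are 95%, exact binomial (Clopper-Pearson) for shares and conditional binomial for ratios of UMI sums, and cover counting error only. The score itself decides this ratio in part: it was 0.467 young over adult with all 6 genes, 0.400 with the 4 class II genes alone and 0.677 with Klrb1b and Il1r2 alone, with adult higher in each. The share describes this score, in which 4 of 6 genes are class II genes, and a cluster of cells led by Klrb1b and Il1r2 can have another ratio. The lowest member score was 2.339 and the median member score 2.587. The 50 cells just inside averaged 79.7 H2-Aa UMIs per 10000 and the 50 just outside 80.3, so the limit separates near-identical cells. The median member held 12299 UMIs among young and 12413 among adult cells, against 10223 and 9763 in other base cells.

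**Figure D1:**
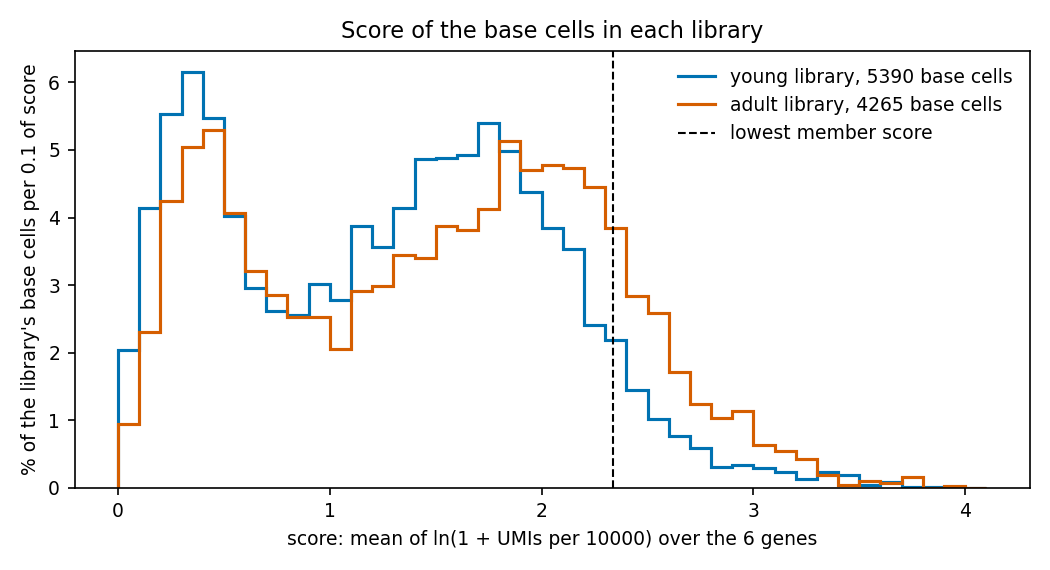
Score of all base cells in the young (blue) and adult (orange) library, as the percentage of each library's base cells per 0.1 of score, with the lowest member score (2.339) dashed. The adult curve lies above the young one through most of the range to the right of the line, where 14.7% of adult and 6.88% of young base cells fall.

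The genes that chose the members are described without a test. Levels are given as CPM, the UMIs of a gene per 1000000 summed UMIs of the group. Klrb1b stood at 249 CPM in the young members and 170 CPM in the adult members, and at 12.4 and 15.9 CPM in other base cells. A Klrb1b UMI was found in 70.3% of young and 61.5% of adult members. Il1r2 stood at 408 and 346 CPM in members and was found in 82.2% and 73.8% of them. H2-Aa stood at 9882 and 10178 CPM and was found in every member. H2-DMb2, a beta chain of H2-DM, was found in 55.8% of young and 67.4% of adult members.

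Not every member carried the 2 genes of its name. Klrb1b and Il1r2 were found together in 228 young members (61.5%) and 295 adult members (46.9%). Il1r2 alone was found in 77 and 169 members, Klrb1b alone in 33 and 92, and neither in 33 and 73, so the last group was chosen on class II genes alone. All 6 score genes were found in 141 young and 224 adult members, and in 57 and 55 other base cells. The label thus holds for the sums and not for every cell. Klrb1b lies at chr6:128813706-128826331 (minus strand) and Il1r2 at chr1:40074079-40125231 (plus strand) in GENCODE M21 on GRCm38.

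Across 6726 measured genes, those at 10 CPM or more in at least 1 of the 4 sums, 146 (2.17%) were higher and 178 (2.65%) lower in members than in other base cells of both libraries. A gene was counted at a 1.5-fold ratio whose interval excluded 1 in the same direction in each library. The score genes, Csf1r and the mCherry construct were left out. The other genes come from the same cells that the score selected, so these counts describe the members and test nothing. Of the genes counted, 58 of the 146 and 51 of the 178 reached 10 CPM only in the cells where they were high, so the filter itself fixed their direction. The median log2 ratio over all 6726 genes was -0.06 in the young and -0.03 in the adult library. Csf1r stood at 363 and 360 CPM in members and 376 and 377 CPM in others.

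**Figure D2:**
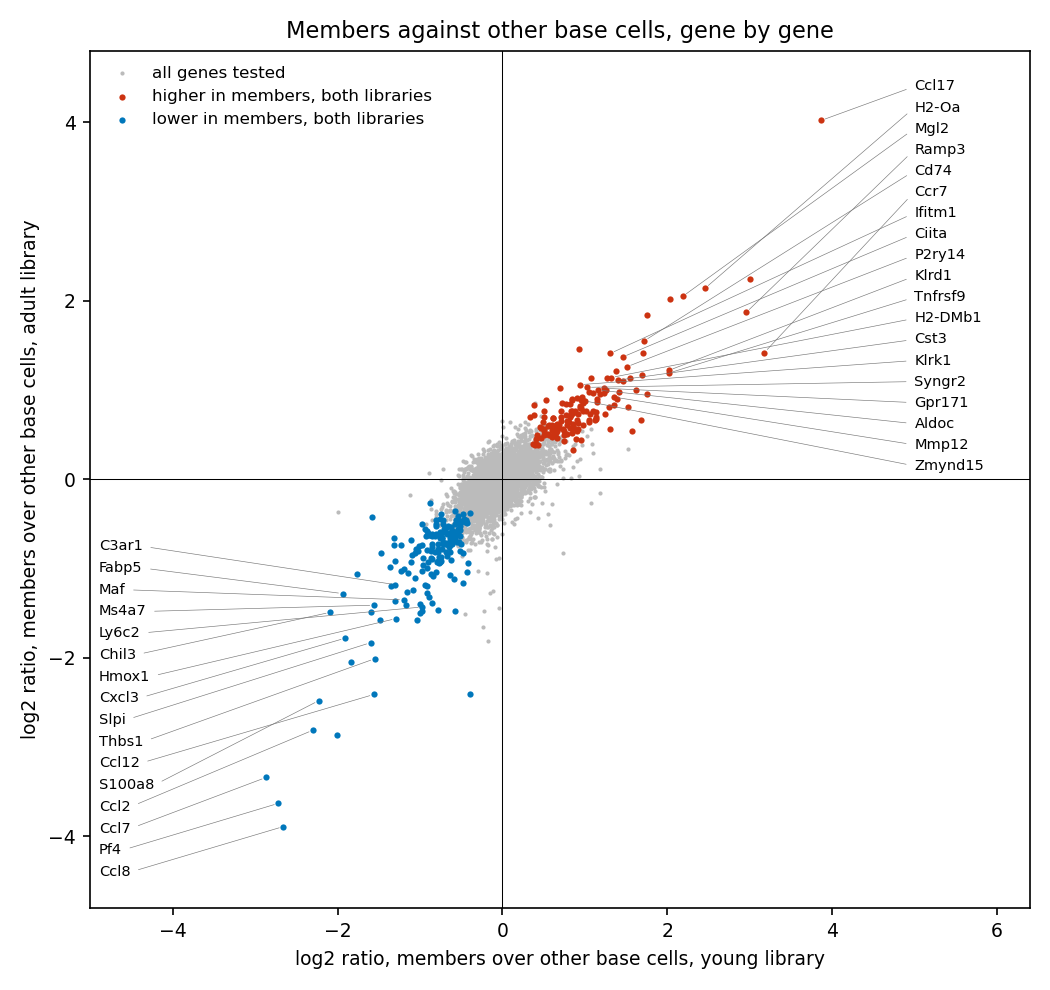
Each point is 1 of 6726 genes, with its log2 ratio of members over other base cells (pseudocount 5 CPM) in the young library on the x axis and in the adult library on the y axis. Red genes (146) were higher and blue genes (178) lower in both libraries, and Ccl17 at the top right and Ccl7, Pf4 and Ccl8 at the lower left lie farthest out in both.

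Class II genes outside the score differed between members and other base cells. Of 14 pathway genes, 11 were measured, 5 were higher in both libraries (Cd74, H2-DMa, H2-DMb1, H2-Oa and Ciita) and 1, the lysosomal protease gene Lgmn, was lower. Against the next 1000 cells by score only 1 was counted as higher. Cd74 stood at 24249 CPM (young) and 25060 CPM (adult), 3.29-fold (3.27 to 3.31) and 2.94-fold (2.92 to 2.95) above other base cells. Ciita, the class II coactivator, stood at 71.5 and 96.4 CPM against 22.8 and 34.2 CPM. H2-Oa, the alpha chain of the H2-DM inhibitor known from B cells and dendritic cells, stood at 37.1 and 30.8 CPM against 2.63 and 3.14 CPM, 14.1-fold (11.2 to 17.7) and 9.82-fold (7.87 to 12.3) higher, and reached 10 CPM only in members. Its partner H2-Ob remained below the 10 CPM minimum, at 9.73 and 8.30 CPM in members and 1.14 and 1.44 CPM in others. Reads of the H2 genes can be shared among near-identical copies, so their separate levels are uncertain.

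Class I presentation genes did not reach the limit between members and other base cells. None of the 13 class I genes and none of the 12 phagosomal oxidase and cross-presentation genes was counted in either direction, with median log2 ratios from -0.05 to 0.01. Among costimulatory ligands 0 of 6 measured genes were counted. Over all 6726 measured genes 2.17% were higher and 2.65% lower, so a count of 0 in lists this short is near that share. Cd86, a ligand of CD28, stood at 303 and 222 CPM in members and 232 and 199.8 CPM in others. Of 7 measured coinhibitory ligands and suppressive enzymes, Pdcd1lg2, which encodes PD-L2, was higher (111 and 122 CPM against 43.9 and 71.1 CPM) and Arg1, arginase 1, was lower (2891 and 3954 CPM against 5497 and 6131 CPM).

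The markers that define conventional dendritic cells were close to 0 in the members. Zbtb46 stood at 2.90 CPM (young) and 0.991 CPM (adult), from 14 and 8 UMIs, and Flt3 at 1.04 and 1.11 CPM, from 5 and 9 UMIs. A UMI of Zbtb46 or Flt3 was found in 9 of 371 young members (2.43%, 1.11 to 4.55%) and 12 of 629 adult members (1.91%, 0.990 to 3.31%). In other base cells the same share was 0.359% and 0.440%. Mature dendritic cells of the same libraries, called the Ccr7 reference, gave 66.7% and 76.5%. They were taken as the 27 young and 34 adult cells with a UMI of Ccr7 and of Fscn1 and none of the CD3 genes. The gene, mitochondrial and mCherry limits of the base cells applied to them, but not the Csf1r rule. Of its 61 cells, 23 were base cells, 5 of them members, so that reference overlaps the groups compared here. Fscn1, the fascin gene of mature dendritic cells, stood at 1.66 and 1.49 CPM in members against 1500 and 1732 CPM in that reference.

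Several less exclusive dendritic genes had higher levels in members. Of the 19 core genes of conventional dendritic cells, 8 reached the minimum, 4 were higher in both libraries (Dpp4, Ccr7, P2ry10 and Spint2) and none was lower. All 4 reached 10 CPM only in members, so the filter fixed their direction and the count supports nothing by itself. P2ry10, which encodes a lysophospholipid receptor, stood at 23.4 and 25.6 CPM against 2.01 and 2.52 CPM, and was found in 20.8% and 22.9% of members. After each cell was thinned to 3000 UMIs it was found in 6.83% and 6.29% of members and 0.38% and 0.54% of other base cells. It was found in none of 383 young and 432 adult mCherry-rich cells, where a count of 0 allows up to 0.783% and 0.694%. Among T cells, 6 of 30 young and 6 of 69 adult cells had it after thinning. T cells were taken as cells within the same limits as the Ccr7 reference, with at least 2 CD3 UMIs and no Csf1r UMI. Dpp4, the CD26 gene, stood at 13.3 and 7.43 CPM against 0.957 and 1.24 CPM. Kit and Kmo remained below 10 CPM in every sum, at 5.18 and 3.59 CPM and at 5.39 and 6.93 CPM in members, and both were under 1 CPM in other base cells.

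Some members carried several of these genes at once. At least 2 of Zbtb46, Flt3, Kit, Dpp4, Kmo and P2ry10 were found in 41 young members (11.1%, 8.05 to 14.7%) and 49 adult members (7.79%, 5.82 to 10.2%). In other base cells 9 of 5019 (0.179%) and 10 of 3636 (0.275%) had them. A macrophage reference, called the C1q reference, was the 1000 other base cells with the highest C1q and Ms4a7 score. The monocyte reference described below was set aside first, and members could not enter by this rule. In the C1q reference 0 of 593 young cells (which allows up to 0.506%) and 1 of 407 adult cells had at least 2 of these genes. In the Ccr7 reference 63.0% and 67.6% did. Among T cells 3 of 40 young (7.5%) and 4 of 102 adult cells (3.92%) did, so these genes together are not particular to dendritic cells.

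A UMI of a macrophage gene was found in nearly all members, and in most cells of the groups that should lack them. Only 4 young and 0 adult members lacked a UMI of every one of Cd14, Fcgr1, C1qa, C1qb and C1qc, and the 0 of 629 allows a share of up to 0.477%. In the Ccr7 reference 3 of 27 and 6 of 34 cells lacked them all, and in mCherry-rich cells 8.79% and 11.3% did, so a single UMI of this set does not tell the groups apart. Cd14, Fcgr1 and at least 1 C1q gene were found together in 85.7% of young and 80.1% of adult members, in 86.6% and 76.3% of other base cells, and in 40.7% and 17.6% of the Ccr7 reference. C1qa, a chain of complement C1q, stood at 1537 and 1591 CPM in members, 1526 and 1393 CPM in other base cells and 431 and 388 CPM in the Ccr7 reference. Cd14, a coreceptor for bacterial lipopolysaccharide, stood at 1208 and 949 CPM against 1278 and 1053 CPM in others and 269.6 and 113 CPM in that reference. After thinning to 3000 UMIs, Fcgr1 was found in 74.3% and 61.1% of members and in 6 of 30 young and 7 of 69 adult T cells. It was found in 16.2% and 7.41% of mCherry-rich cells, those with 20 or more mCherry UMIs. Free RNA can give UMIs to cells that do not make a gene, and doublets remain in the data. The source of these UMIs was not tested. Median depth before thinning was 5585 and 4181 UMIs in the T cells and 36109 and 33816 UMIs in the mCherry-rich cells.

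Part of the macrophage programme was lower in members. Of 16 macrophage core genes 15 were measured, 5 were lower in both libraries (Fcgr1, Adgre1, Abca1, C5ar1 and Tlr7) and none was higher, with a median log2 ratio of -0.61 in young and -0.37 in adult cells. Tlr7 reached 10 CPM only in other base cells, so the filter fixed its direction. Adgre1, which encodes F4/80, stood at 52.0 and 43.8 CPM against 107 and 94.8 CPM. Fcgr1, the CD64 gene, lay at the counting limit, at 594 and 403 CPM against 907 and 658 CPM, 1.53-fold and 1.63-fold lower. Maf, a transcription factor of tissue macrophages, stood at 38.1 and 25.1 CPM against 93.8 and 71.9 CPM. Ms4a7, a tumour macrophage marker, stood at 86.2 and 116 CPM against 264 and 317 CPM. Of the 10 measured tumour and resident macrophage genes, 2 were lower (Ms4a7 and Gpnmb), 8 were not counted and none was higher. Gpnmb reached 10 CPM only in other base cells. The median log2 ratios of that list were -0.18 and -0.21. Of 13 scavenger and Fc receptors, 11 were measured and 6 were lower (Cd36, Msr1, Stab1, Cd93, Lrp1 and Fcgr1), while Axl, a receptor for dying cells, was higher.

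Some monocyte genes were also lower. Of 11 classical monocyte markers 10 were measured, 4 were lower in both libraries, among them Ly6c2, F13a1 and Chil3, 6 were not counted and none was higher. Of the 4, 1 reached 10 CPM only in other base cells. Ly6c2 stood at 929 CPM (young) and 457 CPM (adult) against 1823 and 1238 CPM in others. F13a1, a monocyte coagulation factor gene, stood at 10.8 and 7.80 CPM against 51.5 and 48.0 CPM. Ccr2, the receptor that draws monocytes from the blood, stood at 207 and 281 CPM against 236 and 348 CPM and was found in 68.2% and 80.1% of members. The Ccr7 reference had 83.7 and 36.8 CPM of Ccr2. The 1000 other base cells with the highest Ly6c2 and Plac8 score, taken as a monocyte reference, had 350 and 491 CPM.

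**Figure D3:**
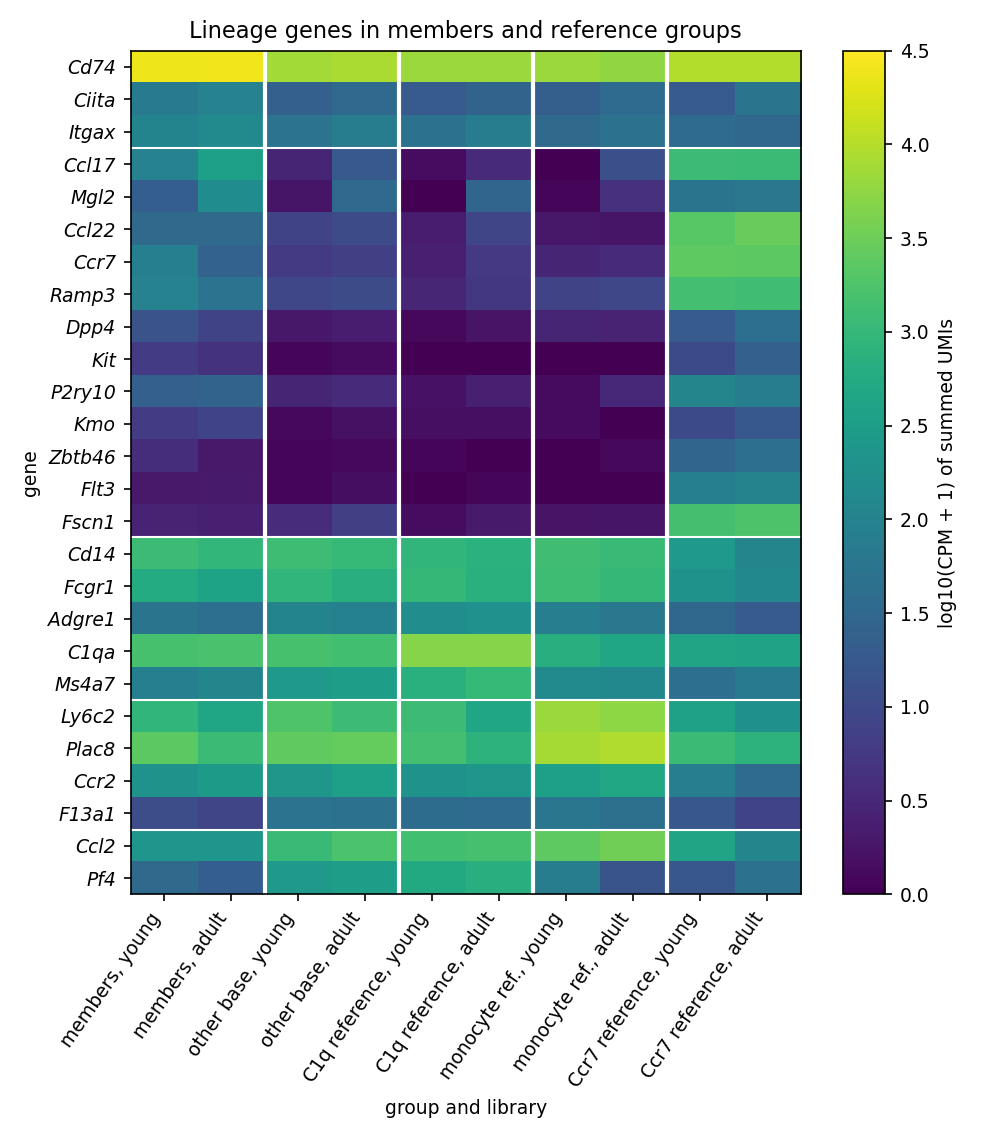
Level of 26 lineage genes as log10 of CPM plus 1 in members, other base cells and the C1q, monocyte and Ccr7 references of each library (colour scale from 0 to 4.5). Members share the Cd14 to Ms4a7 block with the macrophage and monocyte groups and show intermediate Ccl17, Ccr7 and Ramp3, while Zbtb46, Flt3 and Fscn1 are bright in the Ccr7 reference alone.

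Set beside the references, the order of the members differed from list to list. For the 10 measured tumour and resident macrophage genes, members were above the Ccr7 reference in 10 of 10 genes in young and 9 of 10 in adult cells and above the C1q reference in 0 of 10 in either. For the 15 macrophage core genes, the median log2 ratio of members was -0.31 and -0.26 to the monocyte reference and -0.73 and -0.63 to the C1q reference, below both, and 0.80 and 1.06 to the Ccr7 reference. For the 10 classical monocyte markers, members were above the monocyte reference in 0 of 10 and above the Ccr7 reference in 9 and 10, with medians of -0.16 and 0.11 to the C1q reference. For the 8 core dendritic genes that reached the minimum, the medians were 0.86 and 0.27 to the monocyte reference, 1.30 and 1.07 to the C1q reference and -1.74 and -1.86 to the Ccr7 reference. For the 10 mature dendritic cell markers, members were above the Ccr7 reference in 0 of 10, with median log2 ratios of -3.21 and -3.62. The references were chosen on some of these genes, so the counts are descriptive. In these medians the members stood above the Ccr7 reference in macrophage and monocyte genes and below it in dendritic genes, and 5 members belonged to that reference. Markers alone do not show from which precursor a cell came.

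Csf1r as an entry rule could itself keep dendritic cells out. Without it, 96 of the 1000 highest-scoring cells had no Csf1r UMI and 904 were members. Of all cells at or above the lowest member score, 105 (51 young and 54 adult) lacked Csf1r, and 4 of those were in the Ccr7 reference.

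Type 1 and type 2 dendritic markers were mixed. Of 11 type 1 markers 5 were measured and Clec9a, a receptor for dead cells, was higher, at 13.7 and 7.92 CPM against 2.04 and 1.54 CPM. It reached 10 CPM only in young members, so the filter fixed its direction, and Xcr1 stood at 1.04 and 0.743 CPM in members. Of 11 type 2 markers 6 were measured, Clec10a (at 10 CPM only in members) and Mgl2 were higher and Cd24a and Itgam were lower, with Cd209a at 0.207 and 0.867 CPM. Irf8, a factor that type 1 and plasmacytoid dendritic cells depend on, stood at 439 and 363 CPM in members, 513 and 375 CPM in others and 2417 and 1987 CPM in the Ccr7 reference. Of 10 genes ascribed to monocyte-derived dendritic cells, 8 were measured, Itgax, Mgl2, Ccl17 and Ccl22 were higher and Fcgr1 and Itgam lower. Itgax, the CD11c gene, stood at 104 and 142 CPM against 49.7 and 75.1 CPM in others and 37.2 and 32.2 CPM in the Ccr7 reference.

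Ccl17, which attracts CCR4+ T cells and is made by dendritic cells and alternatively activated macrophages, had the largest ratio of the genes named as higher. It stood at 96.7 CPM (young) and 352 CPM (adult) against 1.95 and 17.0 CPM in other base cells, 49.6-fold (40.1 to 61.8) and 20.7-fold (19.0 to 22.5) higher. It was made by few cells: 21 young and 102 adult members had a UMI. In the young library 1 cell held 205 of the 467 UMIs and 10 cells held 96.2% of them. In the adult library 10 cells held 60.5% of 2843 UMIs. After thinning, Ccl17 was found in 3.28% and 11.6% of members, 0.27% and 1.31% of other base cells and 0.26% and 0.46% of mCherry-rich cells.

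Ccl17 was found with Mgl2 and with Ccr7. Mgl2 encodes a galactose-binding lectin of type 2 dendritic cells and alternatively activated macrophages. Of the 21 young members with Ccl17, 14 had Mgl2 and 5 had Ccr7. Of the 102 adult members with Ccl17, 68 had Mgl2 and 16 had Ccr7. Over all members Mgl2 was found in 8.63% of young and 39.7% of adult cells and Ccr7 in 8.09% and 8.43%, and whether Ccl17 goes more with either gene was not tested. In the Ccr7 reference, which Ccr7 defines, 4 of 14 young and 9 of 21 adult cells with Ccl17 had Mgl2.

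Ccr7, the receptor that guides cells to lymph nodes, was found in 30 young members (8.09%) and 53 adult members (8.43%), against 1.63% and 1.73% of other base cells. Its CPM was 85.1 in young and 25.1 in adult members. In the young library 10 cells held 91.0% of its 411 UMIs, up to 92 in a cell. A UMI of Ccr7 and of Fscn1 was found in 2 young and 3 adult members.

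Ramp3, Tnfrsf9 and Klrk1, whose levels were higher in the Ccr7 reference than in members, were found in more members than Ccr7. Ramp3, an accessory protein of peptide hormone receptors, stood at 96.1 and 50.3 CPM against 8.03 and 10.2 CPM, and was found in 32.9% and 18.9% of members. In the Ccr7 reference it stood at 1428 and 1344 CPM. Tnfrsf9, the 4-1BB gene, stood at 147 and 93.1 CPM against 32.5 and 38.0 CPM and was found in 29.9% and 23.8% of members. Klrk1, the NKG2D gene, stood at 200.5 and 105 CPM against 102 and 47.7 CPM and was found in 76.8% and 53.9% of members. It was common elsewhere, in 53.7% and 29.5% of other base cells and 63.4% and 35.1% of the C1q reference. Klrd1, the CD94 gene, stood at 25.3 and 10.6 CPM against 2.45 and 1.73 CPM but was found in 6.47% and 5.09% of members, with 78.7% and 74.4% of its UMIs in 10 cells of each library. Of the other genes named by size, Ifitm1, P2ry14, Cst3 (cystatin C), Syngr2, Gpr171, Aldoc (aldolase C), Mmp12 (macrophage elastase) and Zmynd15 were higher in members, with log2 ratios between 0.88 (Zmynd15, adult) and 1.51 (P2ry14, young).

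Several inflammatory chemokine genes were lower in members. Of 18 chemokine ligands, all measured, 8 were lower (Ccl2, Ccl3, Ccl6, Ccl7, Ccl8, Ccl9, Ccl12 and Cxcl3) and 2, Ccl17 and Ccl22, were higher. Ccl2, the main ligand of CCR2, stood at 224 and 231 CPM in members against 1122 and 1652 CPM, or log2 ratios of -2.30 and -2.81. Ccl7, another CCR2 ligand, stood at 114 and 106 CPM against 862 and 1116 CPM. Pf4, or Cxcl4, stood at 35.4 and 21.0 CPM against 261 and 317 CPM. Ccl8 stood at 12.4 and 4.46 CPM against 105 and 136 CPM. Also lower by the naming rule were S100a8, Slpi, Thbs1, Chil3, Hmox1 (heme oxygenase), Fabp5 (a fatty acid binding protein) and C3ar1, with log2 ratios between -1.18 (C3ar1, adult) and -2.48 (S100a8, adult). S100a8 turned to 0.03 in young and 1.79 in adult cells when members were chosen by Klrb1b and Il1r2 alone.

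Some cholesterol synthesis genes were higher in members. Of 12 enzymes 11 were measured, 5 were higher in both libraries, among them Sqle, Idi1, Fdps and Cyp51, 6 were not counted and none was lower, with medians of 0.42 and 0.59. Of the 5, 1 reached 10 CPM only in members. Fdps, farnesyl diphosphate synthase, stood at 38.7 and 82.6 CPM against 14.7 and 41.8 CPM. None of the 11 interferon gamma response genes and none of the 6 measured cell cycle genes was counted. That is near the share over all genes, 2.17% higher and 2.65% lower.

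These differences followed the score in different ways. Cd74 fell step by step in the young library, from 27002 CPM in the members among the 500 highest-scoring cells to 21565 CPM in the remaining members, 18023 CPM in the cells among the next 1000 and 3791 CPM beyond rank 4000. H2-Oa dropped sharply within the members, from 60.8 to 13.9 CPM in young and from 51.3 to 7.21 CPM in adult cells between the first and second 500. P2ry10 did likewise, from 36.1 to 11.0 CPM and from 38.3 to 11.0 CPM. Ccl2 stood at 139 and 129 CPM in the first 500 and 1366 and 2299 CPM beyond rank 4000. C1qa remained between 1317 and 1703 CPM in every rank group of either library. Against the next 1000 cells alone, 63 genes were higher and 45 lower in members, and the 146 and 178 above therefore include differences from the low-scoring base cells.

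**Figure D4:**
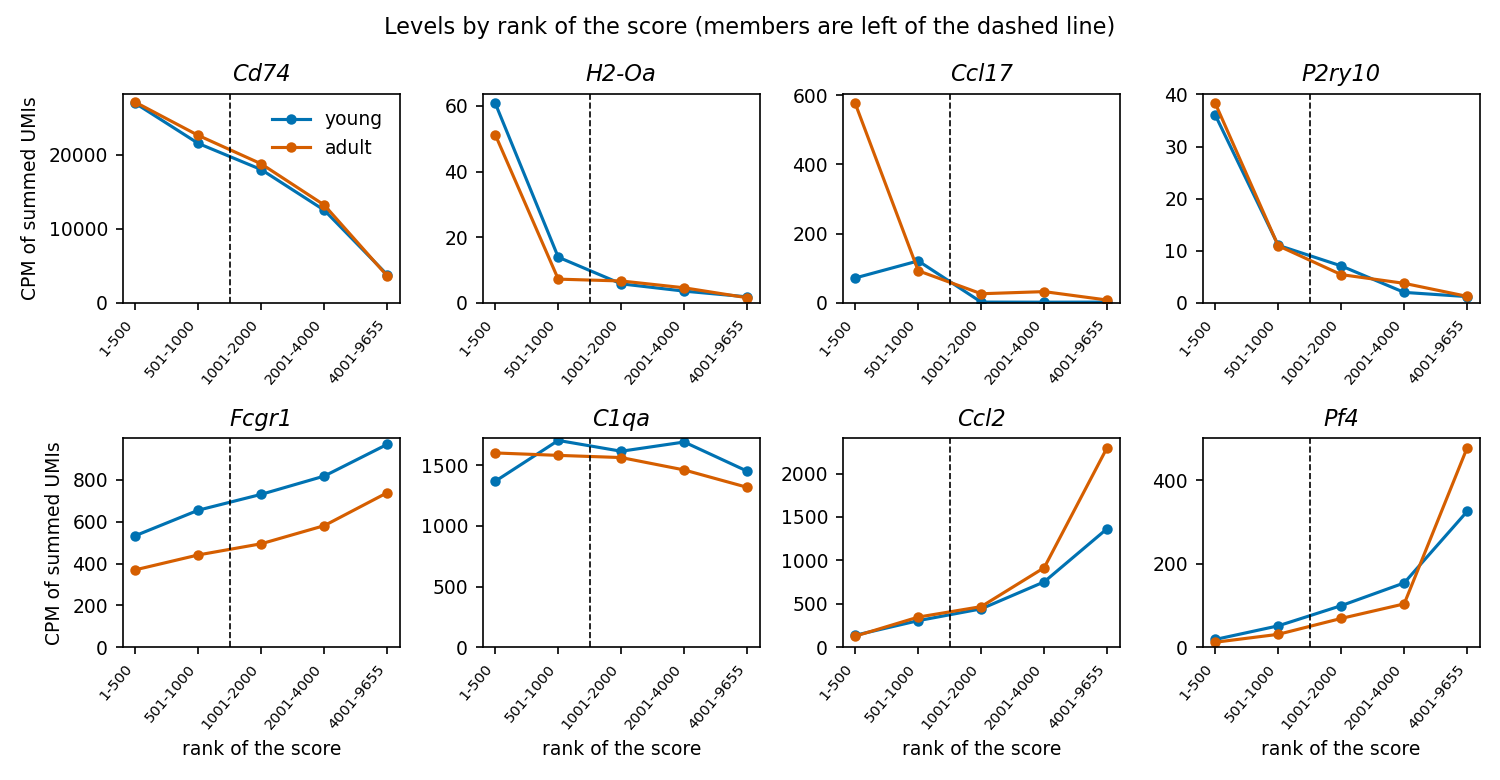
CPM of 8 genes (young blue, adult orange) over 5 groups of base cells ordered by score, members being left of the dashed line. Cd74 declines evenly, H2-Oa and P2ry10 are concentrated in the first 500 cells, C1qa stays between 1317 and 1703 CPM, and Ccl2 and Pf4 are highest beyond rank 4000.

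The 4 kinds of member differed in P2ry10 and in monocyte genes. With Klrb1b and Il1r2 together, P2ry10 stood at 31.6 CPM (young) and 39.2 CPM (adult), against 7.75 and 13.1 CPM with Il1r2 alone and 0 and 2.95 CPM with neither. Ly6c2 stood at 676 and 284 CPM with both genes and 1393 and 957 CPM with neither. The classical monocyte markers summed to 3749 and 2129 CPM with both genes, 6843 and 3699 CPM with Il1r2 alone and 5131 and 5556 CPM with neither. The sum of the core dendritic genes differed less, at 1494 and 1209 CPM with both genes and 1430 and 1663 CPM with neither. That sum was 1435 and 1576 CPM in the monocyte reference and 5227 and 4919 CPM in the Ccr7 reference. Single cells differed more. At least 2 of Zbtb46, Flt3, Kit, Dpp4, Kmo and P2ry10 were found in 40 young and 45 adult members with both genes. Over all members these were 41 and 49 cells. Cd74 lay between 23823 and 28609 CPM in all 4 kinds. Cells with both genes were also the deepest, with medians of 14422.5 and 14075 UMIs against 8674 and 9227 UMIs with neither, and the part of depth in these differences was not tested.

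Markers of other cell types were low. The 8 T cell markers summed to 6.83 and 5.70 CPM in members, 24.6 and 22.1 CPM in other base cells and 7362 and 7404 CPM in T cells. The 8 B cell markers summed to 5.59 and 4.46 CPM, with Ms4a1, Pax5 and Fcmr at 0 in members. The 10 neutrophil markers summed to 47.0 and 48.5 CPM in members and 182 and 271 CPM in others, with Ly6g and Camp at 0 in members. The 8 NK and innate lymphoid markers summed to 30.2 and 12.6 CPM against 25.2 and 13.2 CPM, with Ncr1 and Eomes at 0 in members, and 6 mast cell and basophil markers summed to 0.207 and 0 CPM. Exactly 1 mCherry UMI was found in 15.1% and 17.8% of members and 15.5% and 15.6% of others. The 2 libraries shared 111 barcodes, 5 members held such a barcode, and no barcode was a member in both.

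Between the ages, 317 genes (4.89%) were higher and 242 (3.73%) lower in young than adult members among 6486 measured, and 90 and 105 of these reached 10 CPM only at the age where they were high. In other base cells 213 (3.29%) were higher and 163 (2.52%) lower among 6481. Whether the age difference itself differed between the 2 groups was not tested. Of 11 measured class II pathway genes outside the score 0 were counted between the ages, with Cd74 at 24249 and 25060 CPM. Among the score genes H2-DMb2 stood at 106 CPM (young) and 165.9 CPM (adult), past the 1.5-fold limit. The members had been selected on class II level in both libraries, which sets much of this comparison.

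**Figure D5:**
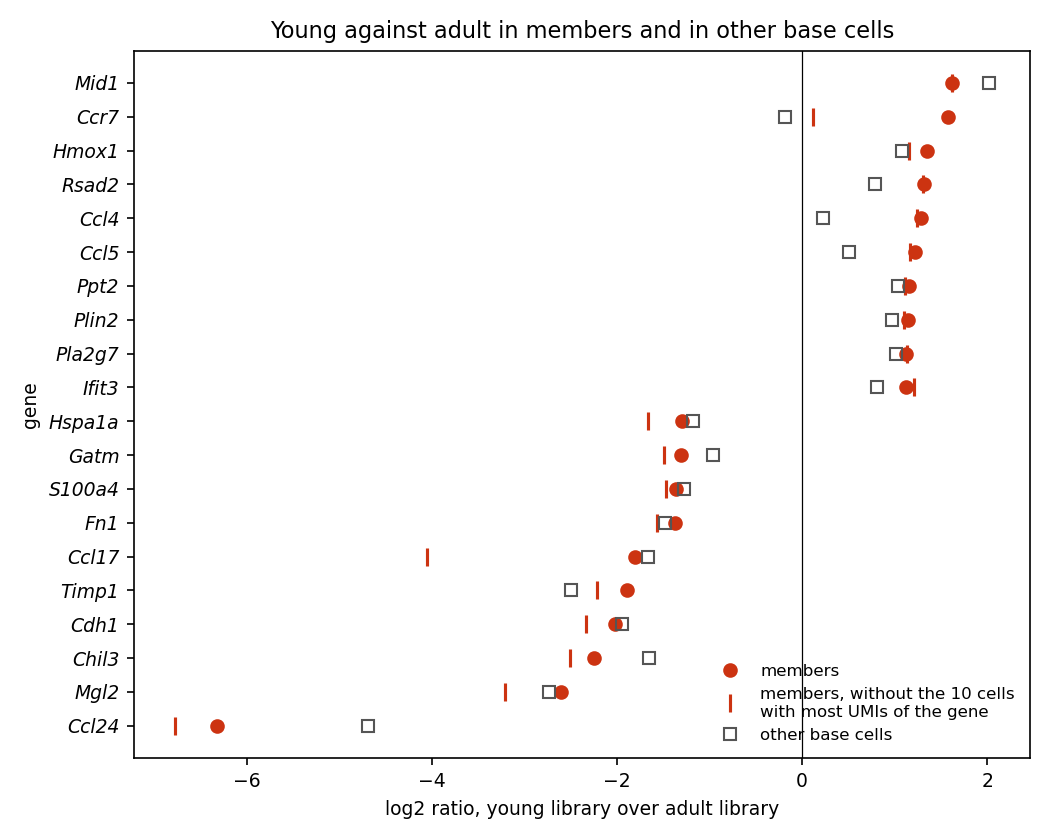
Log2 ratio of the young over the adult library for the 20 genes named by size in members (filled), the same without the 10 members with most UMIs of the gene in each library (bars), and in other base cells (open squares). Most genes lie near their value in other base cells, and Ccr7 moves from 1.58 to 0.12 without those cells.

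The largest age differences lay in alternative activation genes. Ccl24, an eosinophil chemokine gene, stood at 5.80 CPM (young) and 857 CPM (adult) in members, 148-fold (102 to 222) lower in young, and at 38.2 and 1107 CPM in other base cells. Mgl2 stood at 21.5 and 156 CPM, and was found in 8.63% of young and 39.7% of adult members. Ccl17 stood at 96.7 and 352 CPM, with a log2 ratio of -1.81, and at -4.05 without the 10 cells with most Ccl17 in each library. Of 12 measured interleukin 4 response genes 7 were lower in young members and none was higher. Ccl24, 1 of the 7, reached 10 CPM among members only in the adult library, so the filter fixed its direction there. In other base cells 9 of 12 were lower. Chil3, Cdh1 (E-cadherin), Timp1, Fn1 (fibronectin), S100a4, Gatm (which makes the creatine precursor) and Hspa1a (heat shock protein 70) were the others named, between -2.25 and -1.30 in members. Hspa1a shares reads with Hspa1b, so its level is uncertain. Cholesterol synthesis followed, with 7 of 11 genes lower in young members and 6 of 10 in other base cells. Of those 7, 2 reached 10 CPM only in adult members.

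Most type I interferon response genes were higher in young members. Of 18 such genes 12 were higher and none lower, with a median log2 ratio of 0.76, and 8 of 17 were higher in other base cells, with a median of 0.48. Of the 12, 1 reached 10 CPM only in young members, so the filter fixed its direction. Rsad2, the viperin gene, stood at 209 and 80.7 CPM in members, and Ifit3 at 82.6 and 35.3 CPM. Ccl5 and Ccl4, inflammatory chemokine genes, stood at 2208 against 948 CPM and at 930 against 380 CPM. Their ratios in other base cells, 1.43-fold and 1.18-fold, did not reach the limit. Hmox1, Plin2 (a lipid droplet coat protein), Pla2g7, Ppt2 and Mid1 (a ubiquitin ligase) were the other genes named as higher, between 1.12 and 1.62, and all 5 were also higher in young other base cells.

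Monocyte markers were mixed between the ages. Of 9 measured markers 5 were higher (Ly6c2, Plac8, Hp, Ms4a4c and Ifitm6) and Fn1 and Chil3 were lower, Hp reaching 10 CPM only in young members. In other base cells 1 of 10 was higher and 2 were lower. Plac8 stood at 2285 and 1147 CPM in members, 1.99-fold (1.94 to 2.05) higher in young, and at 2536 and 2782 CPM in other base cells. Its ratio was 0.886 (0.801 to 0.979) in members with Klrb1b alone and 1.07 (0.984 to 1.17) in those with neither gene. Ly6c2 stood at 929 and 457 CPM.

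Of 8 measured core dendritic genes 4 were higher in young members (Dpp4, Ccr7, Slamf7 and Spint2), Dpp4 and Spint2 reaching 10 CPM only there, and in other base cells 1 of 4 was. Ccr7 rested on few cells. Its ratio of 3.39 (2.86 to 4.03) became 1.15 (0.737 to 1.78) without the 10 members with most Ccr7 UMIs in each library, and the share of members with a Ccr7 UMI was 8.09% in young and 8.43% in adult. Ramp3 stood at 96.1 and 50.3 CPM, and its ratio was 1.91 with and 2.02 without such cells.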

How the data were processed

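Both libraries were counted with Cell Ranger 3.0.2 against mm10, per the submitters' processing notes; the annotation is not given in the sources used here. The deposited matrices hold unnormalised UMI counts, as the authors made them, by gene and barcode. The sample title gave the age. The members and all 39 gene lists were chosen with earlier results of these data known. UMIs were summed per library and cell group and given as CPM, with log2 ratios at a pseudocount of 5 CPM. Total UMIs were 4828069 in young and 8076353 in adult members. Genes at 10 CPM or more were counted at 1.5-fold with a 95% interval that excluded 1. A count of 0 allows 3. Named genes are, at 50 CPM or more, the 15 largest ratios each way shared by both libraries and the 10 largest each way between ages, besides list members; mitochondrial, ribosomal protein, haemoglobin and immunoglobulin genes were left out. Reference groups were set by marker rules and overlap other base cells. Some list genes are counted but not reported here by name. Doublets were not called and remain in the data. Thinning to 3000 UMIs left out 5 young and 9 adult members. Of 31054 features, 31011 matched GENCODE M21. Counting rules were tested on simulated data (numpy 2.4.6, scipy 1.17.1, pandas 2.3.3).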

Additional observations from a re-analysis of the deposited data

Results flagged for a closer look

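Ifnb1, the interferon beta gene, lay in opposite directions in the 2 libraries when members were set against other base cells, with a log2 ratio of 0.73 in young and -0.82 in adult cells. It stood at 21.8 and 2.72 CPM in members and 11.2 and 8.60 CPM in others. In the young library 23 members had a UMI, 1 of them held 45 of the 105 UMIs and 10 held 87.6%. In the adult library 8 members had a UMI. The difference between the libraries was not tested.

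Ube2c, a ubiquitin-conjugating enzyme of mitosis, lay in opposite directions between the ages. Its log2 ratio of young over adult was 0.81 in members (20.7 against 9.66 CPM) and -0.53 in other base cells (6.30 against 11.3 CPM). This difference was not tested either.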

How the results depend on the processing

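No paired analysis was possible because each age is 1 library without a replicate number, and leaving out a replicate was not possible for the same reason. The adult share of members was higher than the young share under each of the 9 alternatives and the 1 added later that could change it. The young over adult ratio was 0.467 with all 6 genes, 0.400 with the 4 class II genes and 0.677 with Klrb1b and Il1r2. Without a minimum level, 268 genes were higher and 280 lower in members, 557 higher and 437 lower in young members, and 9 core dendritic genes higher. At 50 CPM these were 45, 88, 114, 51 and 1. With 500 members 291 genes were lower, as were 8 macrophage core genes in place of 5, and with 1500 members 2 core dendritic genes were higher in place of 4. Of 10 measured mature dendritic markers, 2 (Ccr7 and Ccl22) were higher and 1 (Cd63) lower in members than in other base cells of both libraries. Ccr7 reached 10 CPM only in members, so the filter fixed its direction. The 2 higher markers became 4 with 500 members, with the 500 highest of each library and with equal weight per cell. They became 1 with the class II score or at 50 CPM, and 7 with Klrb1b and Il1r2 as the score. With that last score S100a8 turned to 0.03 in young and 1.79 in adult cells. At 3000 UMIs per cell 3 macrophage core genes were lower. The causes were not tested.

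Chosen after seeing the data, members with Klrb1b and Il1r2 gave 301 lower genes and 4 mature dendritic markers. Against the next 1000 cells, 63 genes were higher and 45 lower, with 1 class II pathway gene, 1 macrophage core gene and 5 chemokines counted. Without the 10 members with most UMIs of the gene, Ccr7 moved from 1.58 to 0.12. Of 1672 values for single genes of members against others, 1630 stayed on their side of the limit, and of 418 between ages 414 did. These are 88 and 22 values repeated over overlapping settings, mostly for genes named by size in these same data. A change of pseudocount or minimum level could not move a value across the limit. The totals are therefore descriptive and lend no support by themselves. With 1 library per age, differences under 1.5-fold and genes under 10 CPM could not be read at this depth.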

Other observations

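Further gene groups were described in the members. Nr4a3, an early response nuclear receptor gene of dendritic cells, was higher (51.4 and 49.6 CPM in young and adult members against 20.8 and 28.7 CPM in other base cells), and of 16 measured myeloid transcription factor genes it and Maf were those counted. Of 9 lipid-associated macrophage genes 3 were lower (Fabp5, Gpnmb and Cd36) and none was higher. Of 12 lysosomal hydrolase genes 3 were lower (Ctsb, Ctsl and Gla). Of 7 measured interleukin 1 family genes outside the score, Il18 was lower. Il1b stood at 3889 and 3492 CPM in members against 3280 and 3224 CPM, and Il1rn, the soluble antagonist, at 622 and 619 CPM against 892 and 892 CPM. Il1r1, the signalling receptor that Il1r2 competes with, was found at 0 and 0.124 CPM in members.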
